A study of Mus musculus with 16 samples.

Results

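The hypoxia and glycolysis genes are 32 genes whose products sense oxygen, carry glucose and lactate across membranes, run glycolysis, or are well known targets of the hypoxia-inducible factors. They were taken as a list of gene names. No measured value of these samples is part of the rule, but the list was drawn up with earlier results of these data known. All 32 were found on the arrays, by 78 probes that carry their names, and they are 32 of the 28250 genes or unnamed transcripts that were tested. For each gene the probe with the highest mean signal stood for it, and each of the 32 chosen probes was well above background on all 16 arrays.

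Hypoxia-inducible factors are transcription factors made of an oxygen-regulated alpha subunit (Hif1a or Epas1, also called HIF-2alpha) and the constant partner Arnt. In the presence of oxygen, prolyl hydroxylases of the Egln family mark the alpha subunit for destruction through the von Hippel-Lindau protein. When oxygen is low the subunit persists, and the factor binds a short DNA motif at genes for glucose uptake, glycolysis, lactate export and collagen hydroxylation. Because this control acts mostly on the stability of the protein, the mRNA levels measured here do not measure HIF activity itself. In bone, cells of the osteoblast lineage take up and ferment much glucose, and the marrow is a tissue of low oxygen.

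The study asked what happens in mouse joints after an operation that leads to osteoarthritis. Male wild-type C57BL6 mice, 10 to 12 weeks old, had both knees operated. In DMM (destabilization of the medial meniscus) the ligament that ties the medial meniscus to the tibia was cut. In the sham operation the joint was opened and the same ligament was exposed and left whole. Joints were collected 1 or 6 weeks later, which gives 4 groups of 4 arrays: sham at 1 week, DMM at 1 week, sham at 6 weeks and DMM at 6 weeks. Each array holds 1 joint of 1 mouse. Subchondral bone, the bone under the joint cartilage, was taken from the medial tibial plateau by laser microdissection of 10 µm sections after decalcification, and what came from a joint was combined into 1 sample, of which 100 ng of RNA went into a Cy3 labelling. No unoperated mice were analysed here, so time after surgery and the age of the mice cannot be told apart. Levels are log2 signals relative to the 75th percentile of the same array, so 0 means as bright as that percentile, and the number of arrays limits the precision.

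All 10 markers of osteoblasts and osteocytes and all 8 of osteoclasts were well above background on all 16 arrays. The same held for all 10 erythroid, all 10 neutrophil and all 8 B cell markers, which belong to marrow cells, and for 9 of 11 chondrocyte, 6 of 8 fibrous tissue and 5 of 9 skeletal muscle markers. In such bulk tissue, fewer cells of a type and less RNA per cell cannot be told apart. The second sham array at 6 weeks (sham 6-week replicate 2) stood apart. Its 75th percentile of signal was 329, against 471 to 873 on the other 15 arrays, and it was the lowest of the 16 arrays for 18 of the 32 genes. For the 20 genes with several usable probes of 1 orientation, the probes of a gene disagreed on that array by a median of 1.05 on the log2 scale, against 0.15 to 0.39 on the other arrays. Differences that rest on it are given with and without it.

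To show what the hypoxia-inducible factors could read at these genes, the 250 bases before the RefSeq gene start (mouse assembly GRCm38.p6) were searched for the core of the HIF motif, ACGTG or GCGTG, on both strands. RefSeq promoters were at hand for 28 of the 32 genes, and 26 of the 28 held a match in at least 1 promoter. Of their 38 promoters 32 (84.2%) held a match, against 38.6% of all 32851 mouse promoters of the same length. Since the list was drawn up in part from well known HIF targets, a high share is partly built in. Some promoters of Eno1 and Aldoa overlap, so that the same matches are counted more than once. The promoters of these genes are also rich in CG pairs, with a median of 15 against 6 for all promoters. Of the 12417 promoters with at least as many CG pairs as the lower quartile of these genes (9.25), 64.2% held a match. A match is only a run of letters and does not show that a factor binds. The 5 promoters printed here belong to the genes with the lowest adjusted p between 1 and 6 weeks, and run 5′ to 3′ along the gene with matches in capitals.
Hif1a (chr12:73907617-73907866, plus strand): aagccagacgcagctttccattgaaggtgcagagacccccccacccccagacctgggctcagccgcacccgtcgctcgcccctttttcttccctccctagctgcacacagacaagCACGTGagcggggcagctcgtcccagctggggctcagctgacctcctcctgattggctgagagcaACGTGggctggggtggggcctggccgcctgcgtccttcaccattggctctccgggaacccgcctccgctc
Hk2 (chr6:82774455-82774704, minus strand): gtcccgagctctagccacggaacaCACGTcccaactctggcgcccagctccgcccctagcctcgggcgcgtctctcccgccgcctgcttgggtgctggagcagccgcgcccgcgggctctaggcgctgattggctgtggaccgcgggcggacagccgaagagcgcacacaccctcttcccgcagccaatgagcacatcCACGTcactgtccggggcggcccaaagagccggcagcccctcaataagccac
Slc2a1 (chr4:119108495-119108744, plus strand): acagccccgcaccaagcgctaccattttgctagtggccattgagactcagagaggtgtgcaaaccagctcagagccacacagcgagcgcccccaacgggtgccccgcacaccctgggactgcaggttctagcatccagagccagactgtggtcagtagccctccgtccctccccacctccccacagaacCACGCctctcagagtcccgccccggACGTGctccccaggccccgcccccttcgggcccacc
P4ha1 (chr10:59323046-59323295, plus strand): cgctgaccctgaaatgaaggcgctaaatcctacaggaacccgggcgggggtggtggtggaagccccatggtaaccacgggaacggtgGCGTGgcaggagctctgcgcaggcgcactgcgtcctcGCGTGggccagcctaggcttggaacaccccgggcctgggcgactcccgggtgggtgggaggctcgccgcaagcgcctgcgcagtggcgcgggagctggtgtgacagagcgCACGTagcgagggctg
P4ha2 (chr11:54100674-54100923, plus strand): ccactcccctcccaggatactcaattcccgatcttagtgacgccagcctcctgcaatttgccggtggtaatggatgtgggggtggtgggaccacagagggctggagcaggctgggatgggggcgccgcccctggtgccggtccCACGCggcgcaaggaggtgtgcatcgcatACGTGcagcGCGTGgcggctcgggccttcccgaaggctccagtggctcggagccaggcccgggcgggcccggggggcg
In Hif1a the capital run CACGTG is a palindrome that holds a match on each strand, first base at -135 and -134 from the gene start, and a second ACGTG begins at -70. Hk2 has its matches on the opposite strand, at -226 and -52, where they read as CACGT. Slc2a1 holds 2 matches within its last 61 bases before the start. P4ha1 and P4ha2, the genes of the alpha subunits of collagen prolyl 4-hydroxylase, hold 3 matches each.

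The largest differences in these genes lay between the times after surgery. With both operations together, 25 of the 32 genes were lower at 6 weeks than at 1 week, with a median difference of -0.20 on the log2 scale, where the median of all 28250 genes was 0.04 and 12529 of them were lower. No gene of the list passed the threshold of an adjusted p of 0.05 (limma, Benjamini-Hochberg over all genes), while 247 genes of the table did (0.874%), 181 of them higher at 6 weeks. Unadjusted p-values were under 0.05 for 8 of the 32 genes, all lower, against 15.8% of all genes. The 8 were Hif1a, Slc2a1, Hk2, Aldoc, Pgam1, Pfkfb3, P4ha1 and P4ha2. The direction was the same on both slides for 27 of the 32 genes, 21 of them lower and 6 higher. Without the dim sham array, 25 of 32 were again lower and the median was -0.15. In that fit 1502 genes of the table passed (5.32%), and so did 6 of the 32: Hif1a, Hk2, P4ha1 and P4ha2 were lower at 6 weeks, and Bnip3l and Ankrd37 higher. With slide as a block 645 genes passed (2.28%), Hif1a and Hk2 among them. The count over the table rests on single arrays, since leaving out 1 array gave no called gene in 10 of 16 fits.

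**Figure D1:**
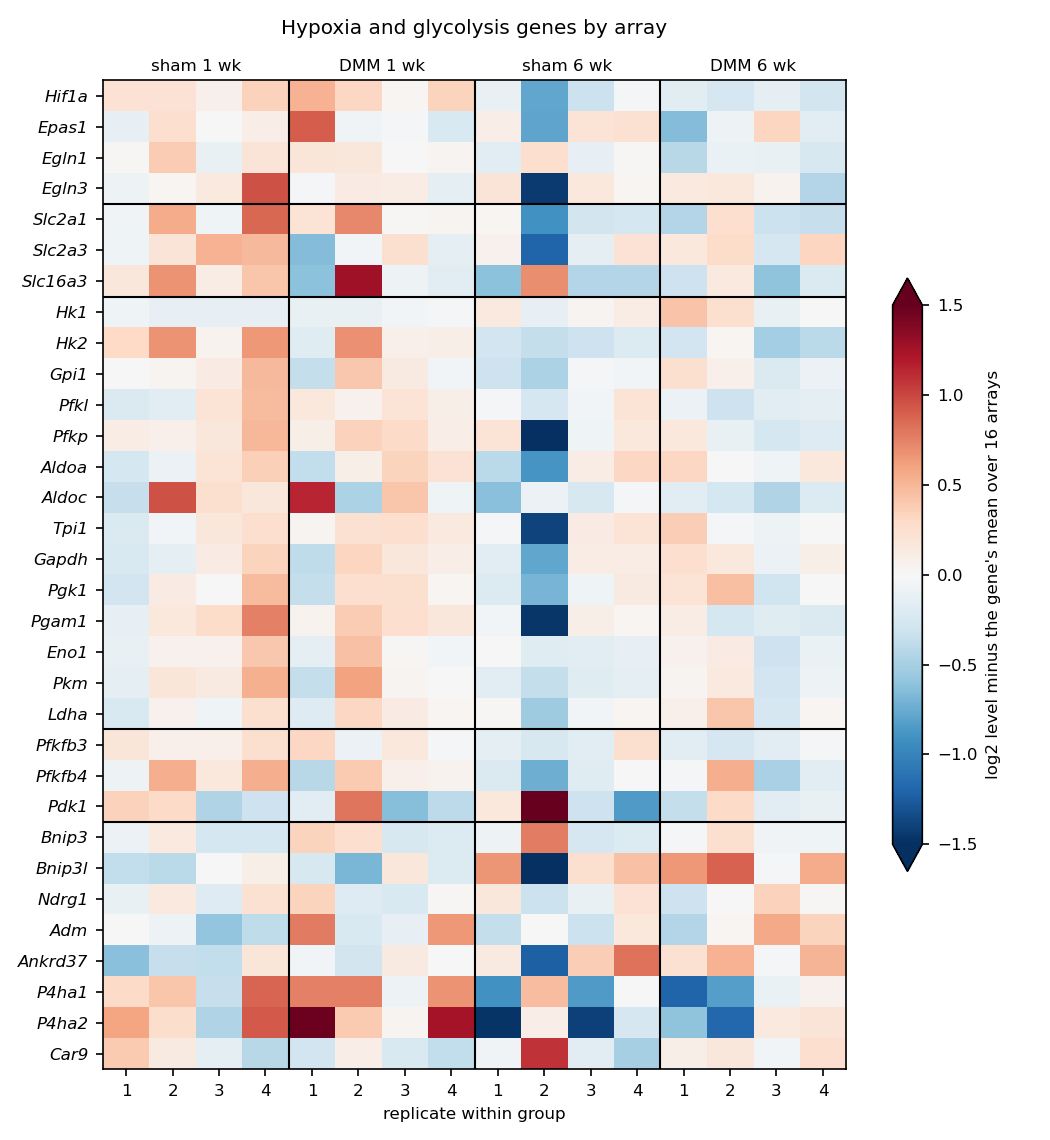
Each row is a gene, grouped by role from the oxygen sensors at the top to other HIF targets at the bottom, and each column an array; colour is the log2 level minus the mean of that gene over 16 arrays, and colours end at the limits of the scale. Sham 6-week replicate 2 is the lowest array for 18 of the 32 genes, and the 1-week arrays are redder than the 6-week arrays for Hif1a, Hk2, P4ha1 and P4ha2.

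Among the oxygen sensors, Hif1a, the oxygen-regulated subunit of HIF-1, separated the times completely. Its levels at 1 week were 1.497, 1.49, 1.35 and 1.63 after sham and 1.79, 1.59, 1.31 and 1.61 after DMM. At 6 weeks they were 1.17, 0.50, 0.95 and 1.26 after sham and 1.11, 1.02, 1.13 and 1.00 after DMM. Every 1-week array lay above every 6-week array, and no other gene of this list separated the times; of all genes 0.658% did so, in either direction. The difference was -0.51 ± 0.12 (SE, 8 arrays against 8), a ratio of 0.700, with a 95% interval of -0.78 to -0.25 and an adjusted p of 0.0595 (limma). Without the dim array it was -0.44 ± 0.09, with an adjusted p of 0.0281. It was -0.64 on slide 1 and -0.39 on slide 2. A second probe of Hif1a, above background on 13 of 16 arrays, gave -0.68 ± 0.18, and another probe, whose coordinates run against the strand of the gene, gave -0.15 ± 0.21.

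Epas1, the other alpha subunit in the list, differed by -0.20 ± 0.20 between times (-0.08 with the dim array left out), and its sign was not the same on both slides. Egln1, the main prolyl hydroxylase that marks HIF for destruction, differed by -0.22 ± 0.11, and after DMM its values at 6 weeks (1.87, 2.18, 2.17 and 2.04) were all below those at 1 week (2.46, 2.46, 2.29 and 2.32). Egln3, a hydroxylase that is itself a HIF target, differed by -0.28 ± 0.23, and by only -0.09 without the dim array, where it stood at -3.54 against -1.92 to -2.08 on the other 6-week sham arrays.

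All 3 transporters were lower at 6 weeks, and none passed the threshold. Slc2a1, the GLUT1 glucose transporter, had levels of 0.43, 1.04, 0.42 and 1.35 at 1 week after sham and of 0.69, 1.20, 0.51 and 0.53 after DMM. At 6 weeks it had 0.51, -0.42, 0.21 and 0.23 after sham and 0.05, 0.73, 0.17 and 0.14 after DMM. The times overlapped through 1 array of each operation at 6 weeks, and the difference was -0.57 ± 0.19 (ratio 0.674, adjusted p 0.137 by limma). Slc16a3, the lactate exporter MCT4, differed by -0.45 ± 0.26 and Slc2a3, the GLUT3 glucose transporter, by -0.14 ± 0.20. Without the dim array these 2 values were -0.60 and 0.02, so that the sign of Slc2a3 changed.

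Of the 14 glycolytic enzymes 13 were lower at 6 weeks, with a median of -0.20 (12 of 14 and -0.16 with the dim array left out). Hk2, the inducible hexokinase that traps glucose in the cell, had the lowest adjusted p of the 14. At 1 week it stood at 1.16, 1.54, 0.91 and 1.503 after sham and at 0.67, 1.54, 0.94 and 0.94 after DMM. At 6 weeks the values were 0.56, 0.50, 0.55 and 0.65 after sham and 0.57, 0.88, 0.35 and 0.45 after DMM. After sham the times did not overlap, and after DMM they did. The difference was -0.59 ± 0.14 (ratio 0.666, 95% interval -0.89 to -0.28, adjusted p 0.0632 by limma). It was -0.58 without the dim array, with an adjusted p of 0.0388, and nearly equal on both slides (-0.60 and -0.57).

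Hk1, the hexokinase that most cells carry at all times, was the 1 enzyme that was higher at 6 weeks, by 0.18 ± 0.10. The 2 hexokinases thus differed in sign, and neither passed the threshold. Pgam1, a phosphoglycerate mutase, differed by -0.48 ± 0.21 and Aldoc, an aldolase, by -0.51 ± 0.22. For Pgam1 the dim array was at 2.91 against 4.32 to 4.45 on the other 6-week sham arrays, and the difference without it was -0.30 ± 0.12. Pfkp, a phosphofructokinase subunit, differed by -0.42 ± 0.22 with that array and by -0.21 ± 0.10 without it. Gapdh, a common reference gene of RNA assays, differed by -0.08 ± 0.16. Ldha, which turns pyruvate into lactate, differed by -0.07 ± 0.14, Pgk1, the first enzyme of the pathway to yield ATP, by -0.12 ± 0.16 and the aldolase Aldoa by -0.12 ± 0.18. In the fit that left out the dim array these 4 values were 0.024, -0.0027, -0.036 and -0.0099, so that each was closer to 0 and that of Gapdh changed sign. Tpi1, which interconverts the triose phosphates, differed by -0.21 ± 0.20, and by -0.02 ± 0.10 without the dim array. Gpi1, Pfkl, Eno1 and Pkm (glucose-phosphate isomerase, a phosphofructokinase subunit, enolase and pyruvate kinase) lay between -0.25 and -0.18. After sham, Hk2, Gpi1 and Hif1a were the 3 genes of the list whose 6-week values were all below their 1-week values, against 5.33% of all genes that separated either way. After DMM they were Hif1a, Egln1 and Pfkl, against 5.23%.

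Glycolysis is set faster or slower by enzymes beside the pathway. Pfkfb3 and Pfkfb4, which make the activator of phosphofructokinase, differed by -0.23 ± 0.11 and -0.32 ± 0.18 at 6 weeks. Pdk1, the kinase that keeps pyruvate out of mitochondria, differed by 0.13 ± 0.33. That value rests on the dim array, where the brightest Pdk1 probe read 6.17, against 3.46 to 4.46 on the other 6-week sham arrays, while another probe of Pdk1 read -0.30 there, below its 15 other values. Without the array the difference of Pdk1, by its brightest probe, was -0.14 ± 0.23. The other probe ran the other way on the remaining 15 arrays, from -0.06 to 1.14 at 1 week and from 0.81 to 1.495 at 6 weeks.

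The other HIF targets shared no direction: 5 of 8 were higher at 6 weeks, and this group held both the lowest and the highest differences of all 32 genes. P4ha1 and P4ha2 encode the catalytic subunits that hydroxylate proline in collagen. P4ha2 had 1-week levels of 0.92, 0.60, -0.12 and 1.26 after sham and 1.81, 0.73, 0.37 and 1.58 after DMM. At 6 weeks it had -1.13, 0.43, -1.07 and 0.08 after sham and -0.26, -0.84, 0.48 and 0.53 after DMM. The spread within each group was wide and the times overlapped. The difference was -1.12 ± 0.32 (ratio 0.461, 95% interval -1.79 to -0.44, adjusted p 0.0931 by limma).

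P4ha1 had 1-week levels of -0.02, 0.10, -0.66 and 0.56 after sham and 0.44, 0.45, -0.39 and 0.36 after DMM. At 6 weeks it had -1.23, 0.15, -1.16 and -0.32 after sham and -1.52, -1.14, -0.42 and -0.25 after DMM. The dim array was the highest 6-week array, and 1 array of each operation was low at 1 week. The difference was -0.84 ± 0.26 (ratio 0.559, adjusted p 0.117 by limma), and a second probe of the gene gave -0.77 ± 0.19. Without the dim array P4ha2 was lower by -1.26 ± 0.31 (adjusted p 0.0363, limma) and P4ha1 by -0.97 ± 0.25 (adjusted p 0.0390, limma).

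Bnip3l, also called Nix, which marks mitochondria for removal and is needed when red cell precursors clear theirs, was among the genes with higher levels at 6 weeks. Its 1-week levels were 3.87, 3.83, 4.23 and 4.33 after sham and 4.01, 3.56, 4.41 and 4.04 after DMM. Its 6-week levels were 4.91, 2.45, 4.48 and 4.68 after sham and 4.89, 5.13, 4.23 and 4.80 after DMM. The dim array was the lowest of all 16 and the next lowest 6-week array lay at 4.23, within the 1-week range. The difference was 0.41 ± 0.30, and without that array 0.69 ± 0.16 with an adjusted p of 0.0323 (limma). A second probe of Bnip3l read 3.89 on the dim array, the highest of its 16 values, and gave a difference of 0.63 ± 0.15 with all arrays.

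Ankrd37, a HIF target of little known function, differed by 0.33 ± 0.24, and by 0.54 ± 0.15 without the dim array (adjusted p 0.0498, limma). Car9, a carbonic anhydrase that exports acid, differed by 0.21 ± 0.20, or by 0.047 ± 0.13 with the dim array left out, and a second probe by -0.07. Bnip3 (a relative of Bnip3l), the stress-responsive Ndrg1 and the vasodilator peptide gene Adm lay between -0.01 and 0.08, and between -0.037 and 0.05 when that array was left out. In that fit 4 of the 8 other targets were higher.

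Probes of 1 gene did not always give 1 value. Of the 21 genes with another probe in the table, 3 had a probe of opposite sign between the times and 10 others a probe that differed by over 1.5 times. Gapdh, with 7 probes, ranged from -0.19 to 0.14, and the other Tpi1 probes gave 0.01, 0.30 and 0.07 against -0.21. Pkm ranged from -0.55 to -0.25, Pfkp from -0.43 to -0.13 and Eno1 from -0.31 to -0.18. Pfkl probes gave -0.07 and -0.01 besides -0.20, the second Ldha probe -0.20 and the second Slc2a3 probe -0.07. The 4 Hk1 probes ranged from 0.03 to 0.18 and the 5 Pdk1 probes from 0.09 to 0.21, all higher at 6 weeks. These values include the dim array, and without it the brightest Pdk1 probe was lower at 6 weeks. The values of Hif1a, P4ha1, Bnip3l and Car9 are given with those genes.

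**Figure D2:**
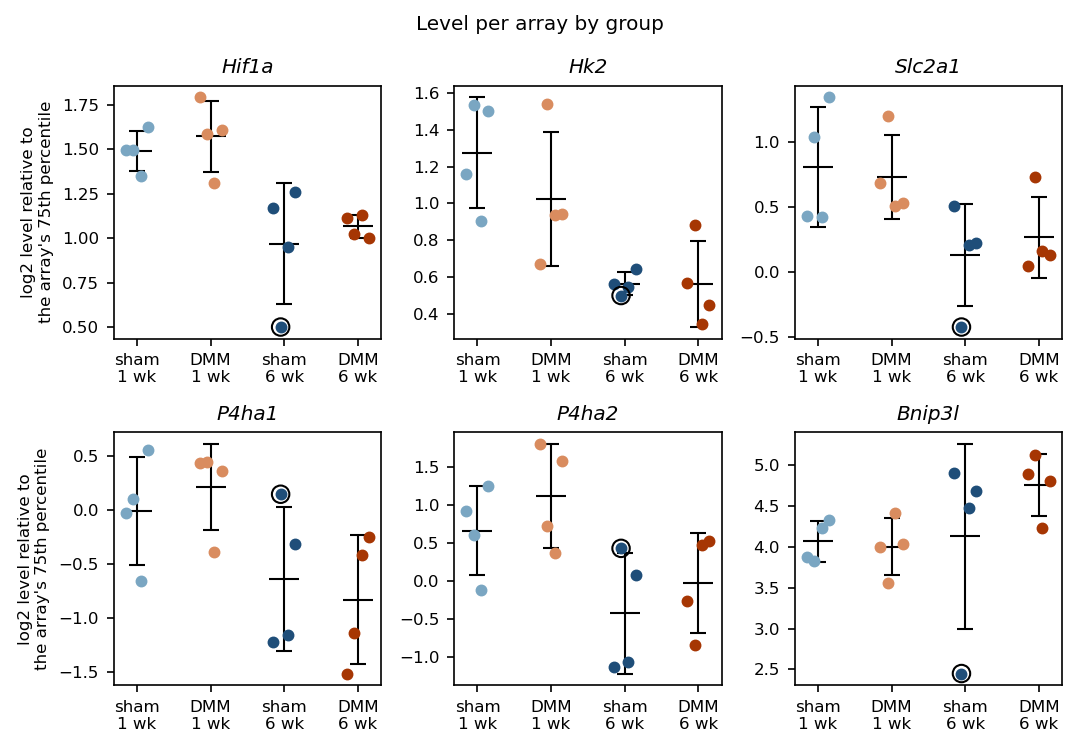
Log2 level relative to the 75th percentile of the array, for 6 genes, by group; points are arrays, bars the mean with 1 SD (n = 4), and the ring marks sham 6-week replicate 2. The 1-week values of Hif1a lie between 1.31 and 1.79 and the 6-week values between 0.50 and 1.26, and the ringed array is the lowest of Bnip3l at 2.45.

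**Figure D3:**
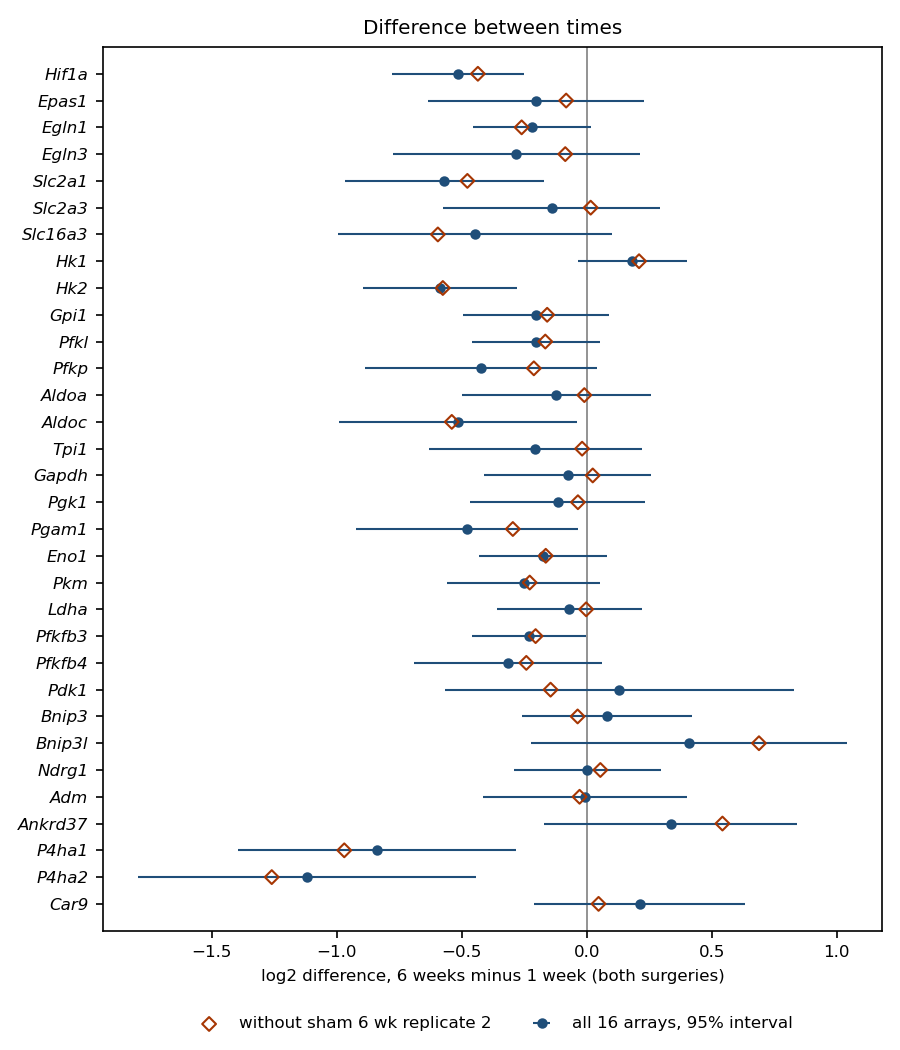
Log2 difference at 6 weeks against 1 week, both operations together, for the 32 genes in order of role; filled points are limma estimates from 16 arrays with 95% intervals and open diamonds the estimates without sham 6-week replicate 2. The intervals of 8 genes lie wholly below 0 and no interval lies wholly above it.

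The 2 operations were also taken one by one, and they share no arrays in this comparison of times. Between 1 and 6 weeks 20 of the 32 genes were lower after both operations, 5 were higher after both and 7 differed in sign. After sham 5 genes had an unadjusted p under 0.05, all lower (Hif1a, Slc2a1, Hk2, Pfkfb4 and P4ha2), against 7.15% of all genes. After DMM there were 4, all lower (Hif1a, Hk2, P4ha1 and P4ha2), against 9.70% of all genes. No gene of the table passed the adjusted threshold in either (0% each, with 2020 and 2741 genes under an unadjusted p of 0.05). For Hif1a the difference was -0.52 ± 0.17 after sham and -0.51 ± 0.17 after DMM. For P4ha2 the values were -1.09 ± 0.45 and -1.15 ± 0.45, and for Hk2 -0.71 ± 0.20 and -0.46 ± 0.20. After sham the next lowest were Slc2a1 (-0.68 ± 0.26), P4ha1 (-0.63 ± 0.37) and Pgam1 (-0.61 ± 0.29), and Pfkfb4 was at -0.58 ± 0.25. The highest after sham were Ankrd37 (0.32 ± 0.33), Pdk1 (0.25 ± 0.46), Bnip3 (0.17 ± 0.23), Hk1 (0.15 ± 0.15) and Adm (0.13 ± 0.27). This order rests on the dim array. With that array left out Ankrd37 was at 0.73, Bnip3l at 0.62, Hk1 at 0.21 and Adm at 0.08, while Pdk1 was at -0.30 and Bnip3 at -0.06. P4ha2 was then at -1.37, P4ha1 at -0.90, Hk2 at -0.69, Slc2a1 at -0.49, Pfkfb4 at -0.43, Hif1a at -0.37 and Pgam1 at -0.24. After DMM, P4ha1 (-1.04 ± 0.37) and Aldoc (-0.53 ± 0.32) were among the lowest. The highest there were Bnip3l (0.76 ± 0.42), Ankrd37 (0.35 ± 0.33), Car9 (0.32 ± 0.28), Slc2a3 (0.27 ± 0.29) and Hk1 (0.21 ± 0.15).

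Cell type markers also differed between the times. With both operations together all 10 erythroid markers were higher at 6 weeks (median 1.18), as were all 8 B cell markers (0.85) and 9 of 9 measured skeletal muscle markers (0.63). All 8 osteoclast markers were lower (-0.79), all 8 fibrous tissue markers were lower (-0.77), and so were 8 of 10 osteoblast and osteocyte markers (-0.45). Of 11 measured chondrocyte markers 9 were higher (1.18). With the dim array left out the erythroid and B cell medians were 1.41 and 0.81. Those of the osteoclast, fibrous tissue and osteoblast and osteocyte lists were -0.84, -0.80 and -0.56, with unchanged counts. Of the megakaryocyte and platelet markers 7 of 8 were higher in that fit, with a median of 0.85. Past its threshold as higher were 9 of 10 erythroid, 4 of 8 B cell and 4 of 8 megakaryocyte and platelet markers. As lower passed 4 of 8 osteoclast markers and 1 of 8 fibrous tissue markers, where 5.32% of all genes passed. In that fit the chondrocyte markers Col2a1, Sox9 and Col11a1 were at -0.05, -0.63 and -0.68, and the other measured chondrocyte markers were higher at 6 weeks. The mean of the osteoclast list ran from -0.40 to 1.07 over the 1-week arrays and from -1.07 to 0.12 over the 6-week arrays, and that of the fibrous list from -0.42 to 1.69 and from -1.02 to 0.46. The mean of the erythroid list ran from -1.81 to 0.32 at 1 week and from -1.11 to 1.07 at 6 weeks. The osteoclast value of 0.12 and the erythroid value of -1.11 were those of the dim array. On the other 6-week arrays the osteoclast mean was at most -0.04. The erythroid mean ran there from 0.3205 to 1.07, with the highest 1-week array at 0.3204. The mean of the neutrophil list ran from -0.64 to 0.52 at 1 week, both on DMM arrays, and from -0.29 to 0.21 at 6 weeks. The part of these markers in the differences of the 32 genes was not tested.

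**Figure D4:**
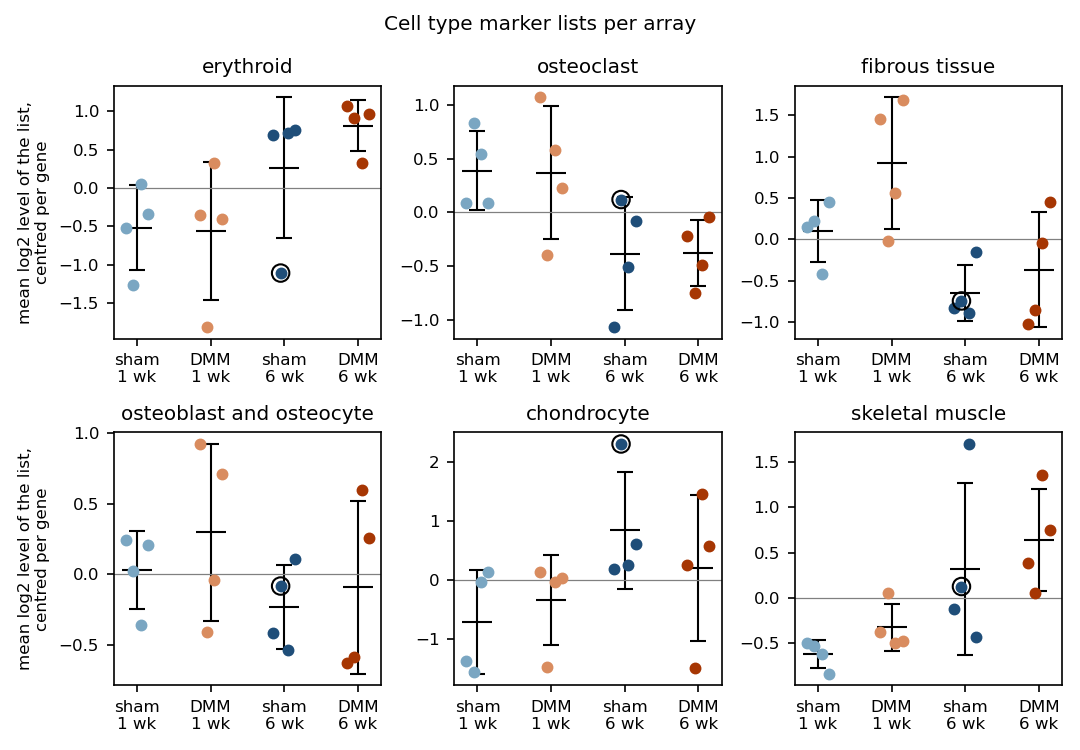
Mean of 6 cell type marker lists on each array, each gene centred on its mean over 16 arrays; points are arrays by group, bars the mean with 1 SD (n = 4), and the ring marks sham 6-week replicate 2. The osteoclast and fibrous lists sit lower and the erythroid list higher on most 6-week arrays, and the ringed array has the highest chondrocyte value at 2.32 and an erythroid value of -1.11.

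Other genes of the same pathways, from lists drawn up with earlier results of these data known, did not all follow. Of 33 measured further HIF targets 24 were lower at 6 weeks, with a median of -0.20 and none past the threshold (20 lower and a median of -0.21 with the dim array left out). The lowest was Plod2, a collagen lysyl hydroxylase, at -1.08 ± 0.32. The highest were Tfrc, the transferrin receptor, at 0.70 ± 0.18 and Ppp1r3c, which targets glycogen, at 0.69 ± 0.31. Of 22 measured further genes of glucose use 15 were higher, with a median of 0.25, and 14 with a median of 0.14 when the dim array was left out. Slc2a4, the insulin-responsive glucose transporter GLUT4 of muscle and fat, rose by 1.36 ± 0.25 (adjusted p 0.0347, limma), from -0.72 to 1.16 on the 1-week arrays to 1.43 to 2.22 on the 6-week arrays. Its call held in 4 of 16 fits that left out 1 array, with adjusted p between 0.0138 and 0.0973 and a difference between 1.17 and 1.48. Bpgm, which makes the red cell regulator 2,3-bisphosphoglycerate, differed by 1.20 ± 0.45, Tigar by -0.55 ± 0.18 and Slc2a6 by -0.48 ± 0.19.

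Of 12 further oxygen sensing genes 7 were lower (median -0.11), or 6 when the dim array was left out (-0.07), with Arnt2 at -0.61 ± 0.34 and the coactivator Ep300 at -0.27 ± 0.09 as the lowest, and Hif3a at 0.23 ± 0.20 (0.10 in that fit) and Eloc at 0.17 ± 0.14 as the highest. Of 12 genes that lead pyruvate into mitochondria 8 were lower (median -0.04), but 8 were higher (median 0.09) when the dim array was left out. Pcx, pyruvate carboxylase, was the highest at 0.95 ± 0.23 with an adjusted p of 0.0575 (limma), and Mpc1 followed at 0.09 ± 0.23 (0.28 in that fit). Pdk4 was lowest at -0.57 ± 0.23 and Dlat next at -0.26 ± 0.10. Without the dim array the glucose genes Slc2a4, Bpgm, Slc16a1, Pfkm and Pklr passed as higher. In that fit Pcx and Tfrc also passed as higher, and Plod1, Plod2 and Bhlhe40 as lower.

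Destabilizing the meniscus made no difference in these genes that passed a test. At 1 week 0 of the 32 genes and 0% of all genes had an adjusted p under 0.05 (limma), and an unadjusted p under 0.05 was found for 0 of the 32 and for 273 genes of the table (0.966%). No gene of the list had 4 DMM values wholly above or below the 4 sham values, against 1.10% of all genes. The median difference of the 32 was -0.02, with 14 higher after DMM and 18 lower. The half-width of the unadjusted 95% interval was 0.55 on the log2 scale in the median. The adjusted threshold is stricter, so that differences larger than that could also be missed for a typical gene. The width of these intervals comes from the spread within all 4 groups. It thus includes the dim array, which is not part of the comparison at 1 week. With that array left out of the fit, 0 of the 32 genes and 0 genes of the table passed at 1 week. The 1-week intervals of that fit are not given here.

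The highest difference at 1 week was that of Adm, the vasodilator peptide adrenomedullin. Its levels were -2.78, -2.86, -3.38 and -3.17 after sham and -2.01, -3.02, -2.91 and -2.14 after DMM. All 4 DMM arrays lay above the sham mean and 2 lay within the sham range. The difference was 0.53 ± 0.27 (95% interval -0.05 to 1.10). P4ha2 followed at 0.46 ± 0.45, Ankrd37 at 0.25 ± 0.33, P4ha1 at 0.22 ± 0.37 and Bnip3 at 0.15 ± 0.23. The lowest was that of Slc2a3, with levels of 2.85, 3.102, 3.43 and 3.40 after sham and 2.25, 2.87, 3.15 and 2.77 after DMM. All 4 DMM arrays lay below the sham mean, 2 of them below every sham array, and the difference was -0.43 ± 0.29 (95% interval -1.05 to 0.18). Pfkfb4 (-0.26 ± 0.25), Hk2 (-0.25 ± 0.20), Egln3 (-0.24 ± 0.33) and Slc16a3 (-0.24 ± 0.36) came next. All 8 fibrous tissue markers were higher after DMM at 1 week (median 0.72). All 8 B cell and all 8 endothelial markers were also higher (medians 0.24 and 0.15), as were 6 of 8 adipocyte markers (0.74). So were 8 of 10 osteoblast and osteocyte markers (0.30). Lower were all 7 measured T and NK cell markers (-0.20), 8 of 10 neutrophil markers (-0.17) and 7 of 8 megakaryocyte and platelet markers (-0.57). Of the macrophage markers 7 of 8 were lower (-0.09). None of these markers passed the threshold. The part of any marker list in the values of the 32 genes was not tested.

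At 6 weeks 0 of 32 genes and 0% of all genes passed, and an unadjusted p under 0.05 was found for 0 of the 32 and for 220 genes of the table (0.779%). No gene of the list separated the operations, against 0.499% of all genes. The median difference was 0.15 with all arrays, 22 genes being higher after DMM, and 0.05 without the dim sham array, when 13 of the 32 changed sign. On slide 1, which held that array, the median was 0.28, and on slide 2 it was -0.12. The highest differences were those of Bnip3l at 0.63 ± 0.42, P4ha2 at 0.40 ± 0.45, Slc2a3 at 0.39 ± 0.29, Tpi1 at 0.34 ± 0.28 and Aldoa at 0.32 ± 0.25. Without the dim array these 5 were 0.07, 0.68, 0.08, -0.04 and 0.10. The lowest were Pdk1 at -0.30 ± 0.46, Egln1 at -0.22 ± 0.16, P4ha1 at -0.19 ± 0.37, Pfkl at -0.15 ± 0.17 and Epas1 at -0.08 ± 0.29. Without the dim array Pdk1 was at 0.25 and P4ha1 at 0.07, while Egln1, Pfkl and Epas1 kept their sign. The second probes of Bnip3l and Slc2a3 gave 0.07 and 0.03 with all arrays. Of 21 genes with another probe, 6 had one of opposite sign at 1 week and 9 at 6 weeks. Hif1a differed by 0.08 ± 0.17 at 1 week and by 0.10 ± 0.17 at 6 weeks, where the sign turned to -0.06 ± 0.14 with the dim array left out.

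**Figure D5:**
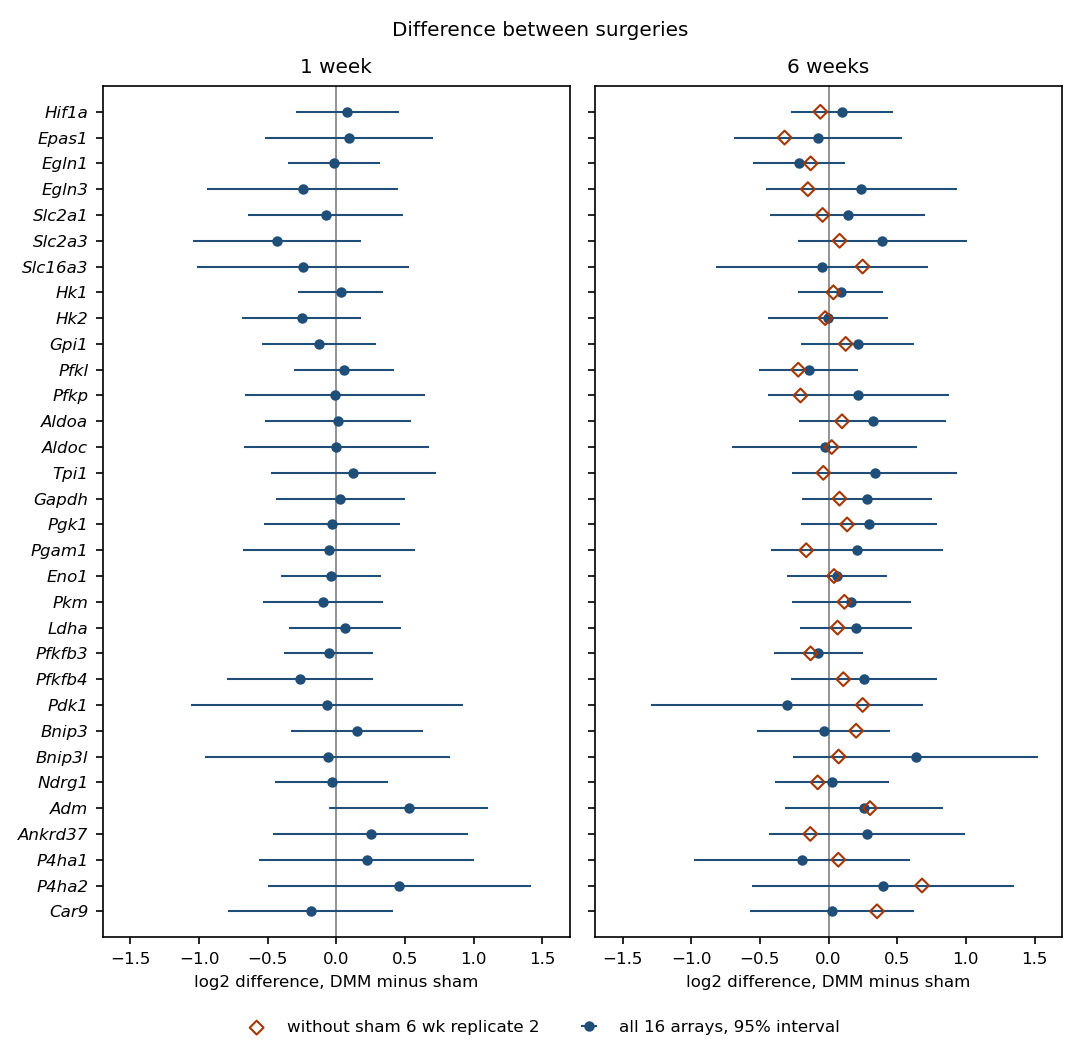
Log2 difference of DMM against sham at 1 week (left) and 6 weeks (right) for the 32 genes in order of role, with 95% intervals from limma; open diamonds at 6 weeks leave out sham 6-week replicate 2. Every interval includes 0, and 13 of the 32 diamonds lie on the other side of 0 from their point.

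The difference between the DMM effects at the 2 times was tested directly. By adjusted p 0 of the 32 genes and 0% of the table passed (limma), and 0 of the 32 had an unadjusted p under 0.05 (193 genes of the table, 0.683%). The largest such difference was that of Slc2a3, 0.82 ± 0.41 (95% interval -0.05 to 1.69). Its 6-week levels were 2.98, 1.71, 2.76 and 3.13 after sham and 3.07, 3.18, 2.65 and 3.23 after DMM, and without the dim array the value was 0.51. Bnip3l (0.70 ± 0.59), Pfkfb4 (0.52 ± 0.35), Egln3 (0.48 ± 0.46) and Gpi1 (0.34 ± 0.27) followed, and without that array they were at 0.14, 0.37, 0.09 and 0.25. The lowest were P4ha1 (-0.41 ± 0.52), Adm (-0.27 ± 0.38), Pdk1 (-0.23 ± 0.66), Egln1 (-0.20 ± 0.22) and Pfkl (-0.20 ± 0.24). For these 5 the values without that array were -0.15, -0.22, 0.32, -0.11 and -0.27, so that Pdk1 changed sign. Averaged over both times, DMM against sham gave 0 of 32 and 0% of all genes by adjusted p, and 0 of 32 and 265 genes of the table (0.938%) by unadjusted p. The highest such averages were P4ha2 (0.43 ± 0.32), Adm (0.39 ± 0.19), Bnip3l (0.28 ± 0.30), Ankrd37 (0.27 ± 0.24) and Tpi1 (0.23 ± 0.20). The lowest were Pdk1 (-0.19 ± 0.33), Slc16a3 (-0.15 ± 0.26), Hk2 (-0.13 ± 0.14), Egln1 (-0.12 ± 0.11) and Car9 (-0.08 ± 0.20). When the dim array was left out, 9 of the 32 signs changed. The 5 highest then stood at 0.57, 0.41, 0.0051, 0.06 and 0.04, and the 5 lowest at 0.09, 0.0032, -0.14, -0.07 and 0.08, so that Pdk1, Slc16a3 and Car9 changed sign. Of the lists of other pathway genes none had a member past the threshold for DMM at either time. At 1 week 22 of 33 further HIF targets were higher after DMM (median 0.09) and 9 of 22 further glucose genes (median -0.07). At 6 weeks these counts were 20 of 33 (0.04) and 16 of 22 (0.14), and 14 of 33 (-0.025) and 12 of 22 (0.028) with the dim array left out.

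The mean of the 32 genes, each centred on its own mean over 16 arrays, ranged from -0.42 on sham 6-week replicate 2 to 0.33 on sham 1-week replicate 4. The 1-week arrays lay at -0.04, 0.17, -0.01 and 0.33 after sham and at 0.07, 0.23, 0.06 and 0.06 after DMM. The 6-week arrays lay at -0.14, -0.42, -0.15 and 0.02 after sham and at -0.07, 0.05, -0.14 and -0.03 after DMM. The times overlapped in this mean, and sham 1-week replicate 4 was the highest array for 10 genes. The glycolytic enzymes had their lowest mean on the dim array (-0.66), where the regulators of glycolysis were at 0.30.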

How the data were processed

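RNA of 16 subchondral bone samples was measured on 1-colour Agilent arrays, 4 per group. Agilent Feature Extraction 10.7.3.1 made the scanner files, per the file headers, and the deposited output gives each spot a background-corrected intensity (gProcessedSignal), calls against background and probe coordinates on mm9. The authors also deposited a value table, read as log2 from its range (-1.67 to 20.43), with array medians of 7.24 to 7.34. Per the submitters' processing notes limma 3.20.9 was used, while the centring and normalization of this table are not stated there. It served as an alternative only.

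Spots of a probe were averaged, intensities were taken to log2 and the 75th percentile of the array was subtracted. Probes well above background on at least 4 of 16 arrays were kept, and the brightest probe stood for a gene, which left 28250 genes. One mean per group was fitted in limma 3.58.1 (R 4.3.3; lmFit, contrasts.fit, eBayes) with 2-sided p-values, Benjamini-Hochberg adjustment over all genes and a threshold of 0.05. The scripts were tested on simulated data. Each group had 2 arrays on each of 2 slides. P-values measure the spread between arrays within groups, pooled over all groups. The dim sham array is part of that spread in every comparison, also in those that do not use its group. Spread between mice and technical spread cannot be told apart, since each array holds a different joint. Intervals are at 95%.

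The 32 genes, and the lists of pathway genes and markers, were chosen with earlier results of these data known. Named per comparison were the 5 largest differences in each direction and genes past the threshold or not overlapping between groups, and for pathway lists the genes past the threshold and the 2 largest in each direction. Some values of the pathway lists are not reported here. Other probes of a gene are given where they differed in sign or by over 1.5 times, with values between the times and counts for DMM. Promoters are RefSeq's, on GRCm38.p6. Alternatives were other scalings, background corrections, filters, probe rules, slide as a block or alone, array weights, other variance models and leaving out each array. Python 3.11.15, pandas 2.3.3 and matplotlib 3.10.9 were used.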

Additional observations from a re-analysis of the deposited data

Results flagged for a closer look

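Within groups of 4 arrays, 11 of 128 gene and group pairs held a value that stood far from the other 3 by Dixon's criterion at 95%, where chance gives about 1 in 20. Of the 11, 7 were on sham 6-week replicate 2. On that array Epas1 was at 2.55 (nearest other array 3.44), Egln3 at -3.54 (-2.08), Pfkp at -0.62 (0.91), Tpi1 at 2.59 (3.96), Pgam1 at 2.91 (4.32) and Ldha at 6.20 (6.69), all low, while the lactate exporter Slc16a3 was high at 4.48 (3.35). The other 4 were Egln3 on DMM 6-week replicate 4 at -2.55 (nearest -2.05), Hk1 on sham 1-week replicate 1 at 6.98 (6.93), Bnip3 on DMM 6-week replicate 2 at 2.73 (2.46) and P4ha1 on DMM 1-week replicate 3 at -0.39 (0.36). The mean of all 32 genes was high on DMM 1-week replicate 2, at 0.23, against 0.06 to 0.07 on the other arrays of that group.

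For Slc2a3 all 4 DMM arrays lay below the sham mean at 1 week and all 4 above it at 6 weeks, and the effect at 6 weeks minus that at 1 week was 0.82. This difference was tested and had an adjusted p of 1 (limma, standard error 0.41). The sham mean at 6 weeks includes the dim array, at 1.71 for this gene. DMM 6-week replicate 3, at 2.65, lay below each of the other 6-week sham arrays (2.98, 2.76 and 3.13). The pattern at 6 weeks thus rests on the dim array.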

How the results depend on the processing

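No paired analysis was possible because nothing ties a given sham joint to a given DMM joint, and replicate numbers only follow the order of the records. For DMM against sham at 1 week, at 6 weeks and averaged, and for the difference of the effects, 0 of the 32 genes passed under any alternative, and the genes of the table that passed were 0 to 2 (array weights: 1 at 6 weeks and 2 for the difference of effects; leaving out 1 array: 0 to 1 at 6 weeks). The median of the 32 at 6 weeks was -0.013 in the authors' value table and -0.12 within slide 2, and averaged over times it was 0.18 within slide 1 and -0.11 within slide 2.

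For 6 weeks against 1 week, both operations, the median of the 32 stayed between -0.29 and -0.11, and 24 to 27 of 32 were lower under each scaling, filter, probe rule, model or left-out array. The genes of the table that passed numbered 0 with the array median, 0 with no filter, 418 with normexp, 451 with probes above background on all 16 arrays, 645 with slide as a block, 5884 (3246 higher) with array weights and 409 with trend and robust variances. The members that passed numbered 1 with normexp and 1 in the authors' table (Hif1a), 2 each with the 16-array filter, slide as a block and trend and robust (Hif1a and Hk2), and 10 with array weights. How many of all genes passed in the authors' table is not given here, so the call of Hif1a there has no share beside it. Leaving out 1 array gave 0 to 1502 genes and 0 to 6 members, and in 10 of 16 such fits no gene passed, while 311 passed without sham 1-week replicate 3, 490 without DMM 6-week replicate 3 and 695 without DMM 1-week replicate 3. The 2 fits besides the dim array in which a member passed left out DMM 1-week replicate 3 (Hif1a, adjusted p 0.0355, limma) and sham 1-week replicate 3 (Hk2, 0.0492). The adjusted p of Hif1a ran from 0.00189 to 0.136 over all alternatives, and that of Hk2 from 0.0025 to 0.158. Array weights gave 3305 genes and 7 members for sham alone, and 963 and 1 for DMM alone. Leaving out 1 array gave 0 to 1 genes for sham and 0 to 27 for DMM. The causes were not tested. Single differences that did not pass changed sign under some alternative for 11 of 32 genes between times (Hif1a, Hk2, Slc2a1, P4ha1, P4ha2, Bnip3l and Ankrd37 not among them), for 23 of 32 for DMM at 1 week and for 30 of 32 at 6 weeks. All 32 genes were above background on every array.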

Other observations

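Probes of 1 gene disagreed on sham 6-week replicate 2. Of the 20 genes with several usable probes of 1 orientation, 11 had probes more than 1 apart on the log2 scale there, once each probe was centred on its mean over 16 arrays, against 0 to 2 genes on each other array. The widest gap was that of Pdk1 (3.14), followed by Tpi1 (2.48), Bnip3l (2.36), Gapdh (2.26) and Pfkp (2.25), while the probes of Pgam1 were 0.142 apart. For Bnip3l the probe at position 1044 of the transcript had the lowest of its 16 values there and the probe at position 772 the highest. For Pdk1 the probe at position 402 had the highest of its 16 values and that at position 3195 the lowest.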
